A study of Mus musculus with 4 samples.

Results

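Peaks of the transcription factor IRF2 were examined at 9 genes of MHC class I: the heavy chain genes H2-K1, H2-D1, H2-Q2, H2-Q4, H2-T22, H2-T23 and H2-M3, the light chain gene B2m, and Nlrc5, which encodes the transactivator of class I genes. The genes were taken by name, 9 of 21774 protein-coding genes placed on assembled chromosomes, and for each the peak nearest to either gene end was read in each library. The data are chromatin immunoprecipitations with sequencing (ChIP-seq) of Lgr5-positive stem cells from the small intestine of mice of strain Lgr5-EGFP-Ires-CreERT2, in which a green fluorescent protein and an inducible Cre are expressed from the Lgr5 locus. Of 4 samples, 2 were precipitated with the antibody Anti-IRF2 (Abcam, ab124744) and 2 are inputs, which were not analysed here. The design text names 5 mice without tying them to samples, and age and sex were not given in the sources used here. Both IRF2 samples carry the same strain and antibody labels, so they are 1 group with no treatment, and no condition could be compared. They are called the Takara library and the Tokyo library below, after the tags in their titles. A peak list holds no expression values, so the cell type could not be checked against markers.

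MHC class I molecules carry peptides from inside the cell to its surface, where CD8 T cells read them. Each is a heavy chain held by B2m. In the mouse the classical heavy chains, here H2-K1 and H2-D1, are highly variable and present peptides broadly. The non-classical chains of the Q, T and M regions have narrower roles: H2-T23 encodes Qa-1, which presents leader peptides to natural killer cell receptors, H2-M3 presents formylated bacterial peptides, and H2-T22 is recognised by some gamma-delta T cells. Promoters of class I genes are known to carry an NF-kB site, an interferon-response element that IRF proteins can bind, and an SXY module through which NLRC5 acts and whose Y box is bound by NF-Y. IRF2 is best known as a competitor of IRF1 at such elements, though it can also activate genes.

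The promoters of 8 of the 9 genes were found in the RefSeq table of build GRCm38.p6, a patch release of the mm10 assembly. Nlrc5 is named only. They are shown because the results turn on where a peak lies relative to the IRF element. Each line runs 5′ to 3′ in the direction of transcription and ends at or before the annotated start. Capitals mark the letters that match the IRF repeat (GAAA, 2 bases of any kind, then GAAA) or the shorter GAANNGAAA on either strand, and for H2-Q2, which has neither, AANNGAAA.
H2-K1 (chr17:34000348-34000477, minus strand): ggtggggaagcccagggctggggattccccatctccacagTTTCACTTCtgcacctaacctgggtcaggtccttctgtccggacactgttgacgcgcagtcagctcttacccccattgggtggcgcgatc
H2-D1 (chr17:35262904-35263052, plus strand): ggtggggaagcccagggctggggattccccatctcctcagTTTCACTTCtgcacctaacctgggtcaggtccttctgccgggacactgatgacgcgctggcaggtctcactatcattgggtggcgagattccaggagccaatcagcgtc
H2-Q4 (chr17:35379424-35379572, plus strand): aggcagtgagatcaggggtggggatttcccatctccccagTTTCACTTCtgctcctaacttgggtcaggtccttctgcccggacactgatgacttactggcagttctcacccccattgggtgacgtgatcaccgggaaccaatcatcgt
H2-M3 (chr17:37270093-37270233, plus strand): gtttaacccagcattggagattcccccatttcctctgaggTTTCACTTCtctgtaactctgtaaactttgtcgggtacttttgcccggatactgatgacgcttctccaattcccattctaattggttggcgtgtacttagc
H2-T22 (chr17:36042824-36042973, minus strand): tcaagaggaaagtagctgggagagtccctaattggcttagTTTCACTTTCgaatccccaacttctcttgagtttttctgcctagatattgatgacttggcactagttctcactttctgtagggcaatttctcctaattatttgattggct
H2-T23 (chr17:36032716-36032865, minus strand): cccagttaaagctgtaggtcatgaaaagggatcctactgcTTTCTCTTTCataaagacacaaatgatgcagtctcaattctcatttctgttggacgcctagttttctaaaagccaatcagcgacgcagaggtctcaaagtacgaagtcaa
H2-Q2 (chr17:35342181-35342306, plus strand): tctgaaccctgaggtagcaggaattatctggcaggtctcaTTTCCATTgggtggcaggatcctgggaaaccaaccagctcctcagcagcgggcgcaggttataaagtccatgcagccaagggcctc
B2m (chr2:122147508-122147657, plus strand): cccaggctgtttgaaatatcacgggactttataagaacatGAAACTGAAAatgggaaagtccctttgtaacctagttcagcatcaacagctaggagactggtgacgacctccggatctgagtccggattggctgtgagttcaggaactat

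In the Takara library, 6 of the 9 genes had a peak midpoint within 5000 bp of a gene end, all 6 of them heavy chain genes: H2-K1, H2-D1, H2-Q2, H2-Q4, H2-T22 and H2-M3. In the Tokyo library 1 of the 9, H2-Q4, had one, and its peaks in both lists overlapped. H2-T23, B2m and Nlrc5 had none in either list. Among all 21774 protein-coding genes, 0.799% had such a peak in the Takara list, 0.808% in the Tokyo list and 0.156% had overlapping peaks of both. The Takara count is thus far above the share over all genes, and the Tokyo count rests on a single gene. The 9 genes were chosen with earlier results of these data known, so the Takara excess cannot be weighed apart from that choice. Of 19 further heavy chain genes and pseudogenes of the H2 complex, 1 had a Takara peak. A window of 1000 bp gave the same 6 and 1 genes, against 0.427% and 0.524% of all genes, and 1 of 9 against 0.101% for overlapping peaks. With 2 libraries of 1 group, counts carry no test. Read depth was not given in the sources used here, so a gene without a peak had none called there, and weaker binding may be present.

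**Figure D1:**
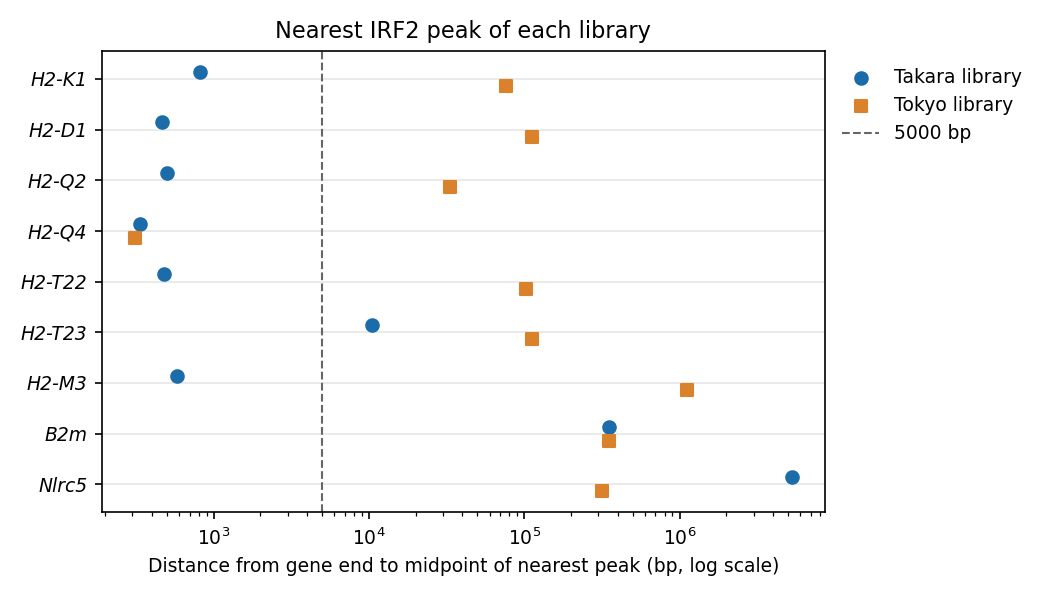
Distance in bp (log axis) from the nearer end of each gene to the midpoint of the nearest peak, with the Takara library as circles, the Tokyo library as squares and 5000 bp as a dashed line. In the Takara library 6 heavy chain genes lie between 334 and 821 bp, whereas in the Tokyo library H2-Q4 alone, at 310 bp, is left of the line.

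H2-Q4, a Qa-region heavy chain gene (chromosome 17, 35379617 to 35384674, mm10), was the gene with a peak in both lists. The Takara peak (35379485 to 35380418) had its midpoint 334 bp inside the low-coordinate end, which is the annotated start of the gene, and a summit score of 39, rank 68.5 of 380. The score is the authors' own value for a peak, its unit is not stated, and it is compared here only within its list. The Tokyo peak (35379459 to 35380396) had its midpoint 310 bp inside the same end, with a score of 19, rank 36 of 238. The intervals shared 912 bp, which is 97.6% of the Takara and 97.2% of the Tokyo interval. Their midpoints were 24 bp apart and their summits 128 bp apart. The summits of all 7 peaks at these genes lie on a grid of 16 bp, which bounds how finely positions can be read.

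The genes whose peaks stood closest to those of H2-Q4 in rank in both lists were Psmb9, an immunoproteasome subunit, and Tap1, a subunit of the peptide transporter. These neighbours share a peak in each list (scores 41 and 19), and the distance from H2-Q4 was 1.58 percentile points. Capza1 and Mov10, which also share peaks (39 and 20), tied next at 2.10 points. The measure is the distance between rank percentiles over 2 libraries, among 35 genes with a peak in each list.

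The classical genes had peaks in the Takara list alone. At H2-K1 (chromosome 17, 33996012 to 34000619, transcribed toward lower coordinates) the peak at 33999232 to 34000364 had a score of 32 and rank 101.5 of 380, with the midpoint 821 bp inside its high-coordinate end. At H2-D1 (35263094 to 35267497) the peak at 35262992 to 35264127 had a score of 30 and rank 115.5, with the midpoint 465 bp inside the end that holds the start. The nearest Tokyo peaks belong to other genes: that for H2-K1 was 76.0 kb away at Tapbp, which encodes tapasin, and that for H2-D1 was 112 kb away at H2-Q4.

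Among the non-classical genes, H2-Q2 (35342307 to 35346764) had a Takara peak at 35342154 to 35343464 with a score of 32, rank 101.5, and the midpoint 502 bp inside its start. This is the widest of the 6 peaks, at 1311 bp. H2-M3 (37270234 to 37274485) had one at 37270210 to 37271420 with a score of 33, rank 95, and the midpoint 581 bp inside its start. H2-T22 (36037128 to 36042742, transcribed toward lower coordinates) differed in position. Its peak at 36042784 to 36043652 (score 28, rank 132) lay wholly outside the gene, upstream of the start, with the midpoint 476 bp away. That midpoint was also 257 bp inside the predicted gene Gm6034, so the peak cannot be given to H2-T22 alone. In the Tokyo list the nearest peaks lay 33.2 kb from H2-Q2 (the H2-Q4 peak), 103 kb from H2-T22 and 1.12 Mb from H2-M3.

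H2-T23, the Qa-1 gene (36029977 to 36032701), lies next to H2-T22, and its nearest Takara peak was the one just described, 10517 bp away. It therefore counts as having a peak only with a window of 25000 bp, which makes 7 of 9 genes against 1.95% of all genes. In the Tokyo list that window gives 1 of 9 against 1.64%, and for overlapping peaks 1 of 9 against 0.294%. Its nearest Tokyo peak was 113 kb away, at 36145363 to 36146038 (score 18, rank 44), with its midpoint inside the overlapping predicted genes Gm10499 and Gm8909, 500 bp from an end of Gm10499. The same Tokyo peak is the nearest one to H2-T22 and to H2-M3.

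B2m (chromosome 2, 122147687 to 122153082) was far from any peak in both libraries, with the nearest at 351.6 kb in the Takara list (121795700 to 121796448, score 17, rank 326) and at 351.5 kb in the Tokyo list (121795864 to 121796454, score 14, rank 121.5). These calls overlap and lie inside Frmd5, so both libraries point to one site, and it is not at B2m. Nlrc5 (chromosome 8, 94434335 to 94527272) had its nearest Takara peak 5.31 Mb away (score 63, rank 24.5) and its nearest Tokyo peak 318 kb away (score 15, rank 91.5), 17236 bp from an end of Bbs2. The absence of a peak at B2m and Nlrc5 sets them apart from the 7 heavy chain genes taken here in the Takara list, where 6 of 7 had one. It hardly does so in the Tokyo list, where 1 of 7 had one. It does not set them apart from heavy chain genes in general. Of 19 further heavy chain genes and pseudogenes of the H2 complex, 1 had a Takara peak.

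**Figure D2:**
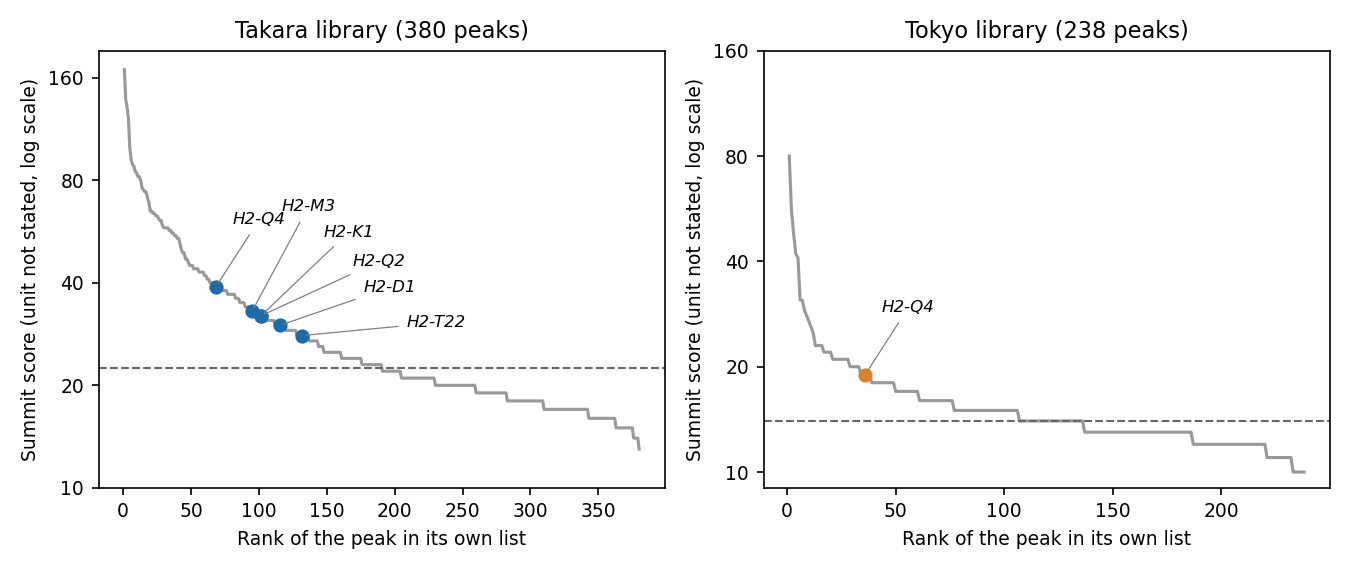
Summit score (log axis, unit not stated) against rank for every peak of the Takara list (left) and the Tokyo list (right), as grey lines, with peaks within 5000 bp of the class I genes as coloured points and the list's median as a dashed line. The 6 Takara peaks run from 28 to 39 and the Tokyo peak is at 19, each above its list's median of 22.5 or 14.

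The 6 Takara peaks were similar in height. Their scores ran from 28 to 39 with a median of 32. This is above the median of 22.5 over the list and of 23 over 132 peaks at the ends of other protein-coding genes. The 132 include the H2-T22 peak, which is also at an end of Gm6034. All 6 stood in the higher-scored 50% of the list, between the best 18.0% and the best 34.7%. Their widths of 869 to 1311 bp (median 1134.5) exceeded the medians of 524.5 bp over the list and 555.5 bp at other gene ends. Those sets also had lower median scores, and widths were not compared at like scores. Within the same range of scores, 3 of 23 Takara peaks at other gene ends overlapped a Tokyo peak, against 1 of the 6 here. A single overlap among 6 is therefore close to what Takara peaks of this height at other genes showed.

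The classical and non-classical genes were not set apart by the counts, scores, ranks or widths of their peaks. Both classical genes (2 of 2) and 4 of 5 non-classical genes had a Takara peak, and 0 of 2 and 1 of 5 had a Tokyo peak. Takara scores were 30 and 32 for the classical genes and ran from 28 to 39 for the non-classical, so the classical values fall inside the other range. The ranks were 101.5 and 115.5 against 68.5 to 132. The widths were 1133 and 1136 bp against 869 to 1311 bp. Midpoint distances were 465 and 821 bp against 334 to 581 bp, and the larger classical value belongs to H2-K1, whose annotated gene end lies upstream of its start. Measured from the nearer of its annotated starts it was 535 bp. With 2 genes against 5, read mostly in 1 library, no test was made.

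**Figure D3:**
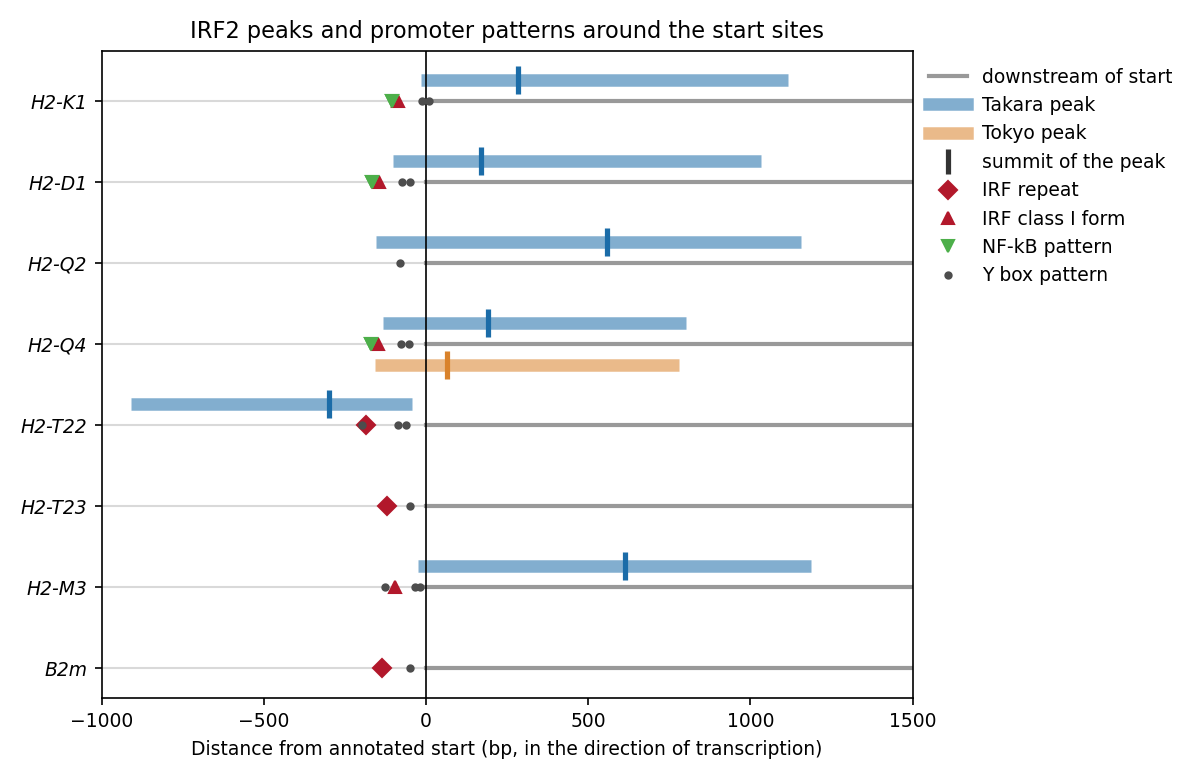
Takara (blue) and Tokyo (orange) peak intervals with their summits, and matches to promoter patterns, by distance in bp from the annotated start in the direction of transcription; patterns were searched in the promoter window. At H2-K1, H2-D1, H2-Q4 and H2-M3 the Takara interval begins 13 to 69 bp downstream of the IRF match, and at H2-T22 it covers the match.

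Relative to the annotated start, taken as position 0, most of these peaks lay within the transcribed side. The Takara summit stood at position 283 of H2-K1 (from the upstream one of its annotated starts), 170 of H2-D1, 191 of H2-Q4, 557 of H2-Q2 and 614 of H2-M3. At H2-T22 it stood at -298, and the same summit stood at position 79 from a start of Gm6034. The share of the interval lying before the start was 1.5% at H2-K1, 1.98% at H2-M3, 8.98% at H2-D1, 11.7% at H2-Q2, 14.1% at H2-Q4 and 100% at H2-T22. Summits after the start were common in this list. Among 76 other protein-coding genes with a Takara summit within 1000 bp of a start, 51 (67.1%) had it after the start, with a median position of 120.5 and an interquartile range from -174.75 to 321.75. The summits of H2-Q2 and H2-M3 lie beyond that range on the downstream side. Read from its own start, that of H2-T22 lies beyond it on the upstream side. The same peak also counts among the 76, at position 79 of Gm6034, which is within the range. In the Tokyo list the H2-Q4 summit was at position 63, against a median of 161 over 97 other genes.

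**Figure D4:**
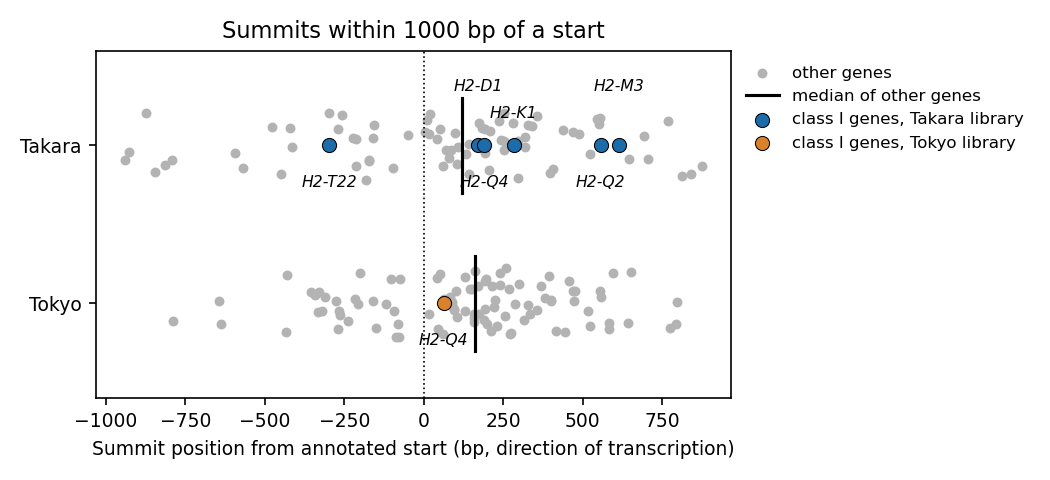
Position of the summit in bp from an annotated start for genes with a summit within 1000 bp, for each library, with other genes as grey points (spread vertically at random), their median as a black bar and the class I genes as coloured points. H2-Q2 at 557 and H2-M3 at 614 are on the downstream side and H2-T22 at -298 is on the upstream side. The H2-T22 summit is also among the grey points, at 79 from a start of Gm6034.

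The IRF element was searched in 2 forms, and 7 of the 8 promoters held either the first or the second. The second form was chosen from these promoters, so the 7 is partly set by that choice. The share of all genes with either form is not given here, so the 7 of 8 has no comparison. The spaced repeat was in 3 promoters, those of H2-T22, H2-T23 and B2m, against 3.94% of 17492 protein-coding genes with a promoter window of the same 300 bases. The form GAANNGAAA, added after the sequences were read, was in 4, those of H2-K1, H2-D1, H2-Q4 and H2-M3, against 8.11%. As it was taken from these promoters, its presence in these 4 cannot be weighed against that share. Each match in these 4 reads GAAGTGAAA on the strand opposite to transcription. The looser AANNGAAA, which every match to either form contains, was in all 8 promoters, against 24.8%. In H2-Q2 that match overlaps a Y box pattern (CCAAT, read on the opposite strand), and the promoter holds neither of the stricter forms. Matches are letters in a window and were not tested for binding.

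The repeat was found at genes with and without a peak. Of the 3 genes with the full repeat, H2-T22 had a Takara peak, and H2-T23 and B2m had none. The B2m match stood at -139 to -130 and read GAAACTGAAA, and that of H2-T23, at -124 to -115, read GAAAGAGAAA. Conversely H2-Q2 had a Takara peak without either form. Among 77 other genes with a Takara midpoint within 1000 bp of a start, 20 (26%) held the repeat in the promoter window, against 3.94% of all genes. The 77 include Gm6034, which shares the H2-T22 peak, so they are not wholly separate from the class I genes. In the Tokyo list 9 of 97 (9.28%) held the repeat.

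The Takara intervals reached the element of the promoter window at 1 of the 5 genes that had both a peak and a stricter match. Parts of the intervals beyond that window were not searched for further matches. At H2-T22 the match at -191 to -182 lay inside the interval, 112 bp from the summit. At the others the interval began downstream of it: the gap was 13 bp at H2-Q4 (match at -153 to -145), 40 bp at H2-D1 (-150 to -142), 65 bp at H2-K1 (-90 to -82) and 69 bp at H2-M3 (-101 to -93). The distances from match to summit were 340, 316, 369 and 711 bp. The Tokyo interval at H2-Q4 covered the match, 212 bp from its summit. Among other genes with a Takara peak and GAANNGAAA the interval covered a match at 11 of 14 (78.6%), with a median distance to the nearest summit of 76.5 bp. For the spaced repeat this was 18 of 20 (90%) and 87.5 bp. The other genes with a Takara peak include Gm6034, which shares the H2-T22 peak. The 4 class I intervals of this kind, 0 of 4 covering the match, thus stood apart from most others in position, without a test. They are not 4 separate cases, as the promoters of H2-K1, H2-D1 and H2-Q4 were 77.3% to 87.4% identical in pairs. The form was also chosen from these promoters.

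The other patterns grouped the genes differently. The NF-kB pattern (GGG, 3 bases of any kind, then TCCC) was found in H2-K1, H2-D1 and H2-Q4, just upstream of the IRF match, against 7.17% of all genes. The Y box letters CCAAT were in all 8 promoters, against 42.3%. All were searched on both strands. Over the 250 bases before the start, H2-K1 and H2-D1 were 87.4% identical over 191 aligned columns and shared an unbroken run of 47 bases, the longest of any pair with a class I gene shown here. H2-Q4 shared 34 bases with H2-Q7. H2-Q2 was 61.3% identical to H2-Q4, with a run of 17 bases. In the same alignments the B2m promoter was 53.2% to 57.8% identical to the heavy chain promoters compared, so 61.3% is only slightly higher. In H2-T22, H2-T23, H2-M3 and B2m the longest run shared with another class I promoter among those compared was 9 to 12 bases. Promoters of H2-Q1, H2-Bl, H2-T10 and H2-T24 were not compared. Nor were those of H2-L, H2-Q8, H2-Q9 and H2-T9, which are not on the assembled chromosomes. A longer run shared with one of these could thus not be seen. The length of the reads and the handling of those that match several places were not given in the sources used here, and their part in the place or absence of peaks was not tested.

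Other class I genes give a comparison for the same letters. Of 19 further heavy chain genes and pseudogenes of the H2 complex on the assembled chromosome, 1 had a Takara peak within 5000 bp and 0 a Tokyo peak. It was the transcribed pseudogene H2-T10, 288 bp from an end (36121484 to 36121980, score 30, rank 115.5). Promoter windows were present for 15 of the 19, none of which had a peak, and 4 of those held GAANNGAAA. In H2-Q6, H2-Q7 and H2-Q10 the element and its flanks read gcaGAAGTGAAActg, letter for letter as in H2-K1, H2-D1 and H2-Q4, with the 9 matching bases in capitals. The nearest Takara peak to these 3 genes was 44.9, 59.2 and 90.1 kb away, in each case that at H2-Q4. The same 15 letters thus stood in 3 promoters with a Takara peak and in 3 without. Those without are not 3 separate cases. The promoters of H2-Q6 and H2-Q7 were 97.2% identical over 211 aligned columns and shared an unbroken run of 66 bases. Whether reads could be placed at such near copies was not tested.

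**Figure D5:**
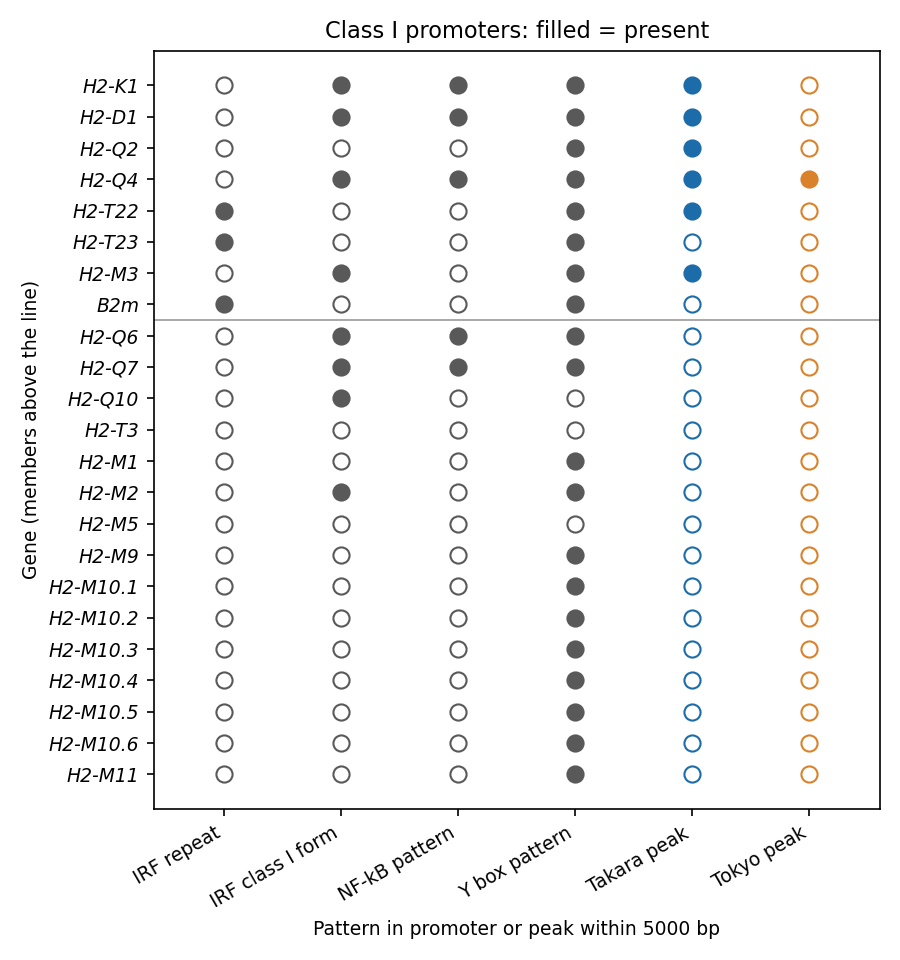
Presence (filled) or absence (open) of 4 promoter patterns and of a peak within 5000 bp in each library, for the 8 genes with a promoter window (above the line) and 15 other class I heavy chain genes (below it). H2-Q6 and H2-Q7 have the same filled patterns as H2-K1, H2-D1 and H2-Q4 and no peak.

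Genes that act with class I chains were taken as lists. Of 13 genes for peptide supply and loading (such as Tap1, Tap2, Tapbp, Erap1 and Psmb8), 10 had a Takara peak and 7 had a Tokyo peak, and all 7 of those overlapped the Takara one. Their 9 separate Takara peaks had scores of 22 to 82 with a median of 41, and their 6 Tokyo peaks scores of 15 to 29 with a median of 20. H2-Q4, at 39 and 19, is near those medians, while the other 5 heavy chain peaks, at 28 to 33, are below 41. Of 14 factors that bind class I promoters or control Nlrc5, Irf2 itself had a peak in both lists (scores 37 and 21). None of Rfx5, Rfxap, Rfxank, Ciita and Irf1 had one in either list. Of 12 class I-like genes outside the H2 complex, Hfe, a regulator of iron uptake whose product pairs with B2m, had a Takara peak (19, 311 bp from an end). None of 10 class II genes had one in either list, although they lie between H2-K1 and H2-D1 on the chromosome or, for Cd74, elsewhere.

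Over the 3.28 Mb from H2-K1 to H2-M3, the Takara list had 13 of its 380 peaks and the Tokyo list 5 of its 238. Of these, 6 and 1 were the peaks at the class I genes described here. The others included 3 at Tap1 with Psmb9, at Psmb8 and at Tap2 in each list. Apart from H2-Q4, then, the Tokyo peaks of the H2 complex lay at genes of peptide supply and inside Gm10499 and Gm8909. The Takara list had a separate peak near Gm8909 (36167785 to 36168243, score 21). Whether these predicted genes belong to class I was not examined, and they are not in the lists used here.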

How the data were processed

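IRF2 ChIP-seq was deposited as 1 file per library. Per the submitters' processing notes, reads were aligned to mm10 with BWA 0.7.12 and peaks called with MACS. The MACS version, thresholds, duplicate handling and sequencing depth were not given in the sources used here. Summits and intervals stand in separate tracks, per the file headers. The deposited score, a whole number per summit with no stated unit, was used within its own list. The Tokyo deposit repeats the 380 Takara peaks line for line (380 of 380 identical), and this copy was not used. No column of values from another sample was used.

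From these files, distances ran from the midpoint of each peak to a gene's nearer end in the RefSeq table (GRCm38.p6). The 113 protein-coding genes on scaffolds were left out. Tied scores took the average rank, and peaks overlapping by 1 bp or more counted as shared. Starts and strands came from the RefSeq promoter windows, 250 bases before and 50 after a start. Promoters were aligned globally with free ends (Biopython 1.88). Computations used Python 3.11.15 and were tested on simulated data. The genes, lists and comparisons were chosen with earlier results of these data known. All 9 genes are named, with examples from the lists and the 3 genes most like H2-Q4 in rank (a tie adds 1). Replicates are numbered in record order: Takara is replicate 1 and Tokyo replicate 2. Nothing in the labels says that they came from separate mice. No tests were made. The result for 1 gene of these lists is not reported here.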

Additional observations from a re-analysis of the deposited data

How the results depend on the processing

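The count of genes with a peak rests on the Takara library. In either library 6 of 9 genes had one, 1 without replicate 1 (Takara) and 6 without replicate 2 (Tokyo). For the classical genes these leave-one-out counts ran from 0 to 2, and for the non-classical from 1 to 4. Windows of 1000 and 25000 bp, distances from the summit or the peak's edge, and the higher-scored 50% of each list left the Takara count at 6 or 7 and the Tokyo count at 1. The H2-Q4 peaks stayed shared with a reciprocal overlap of 50% and with midpoints within 500 bp. No distance moved across 5000 bp when taken from the summit, the edge or the start. The count of promoters with the IRF repeat was 3, and 3 before the start only, but 8 with AANNGAAA. GAANNGAAA, chosen after seeing the data, was in 4, and these are other genes. No paired analysis was possible because the 2 libraries form 1 group and the inputs were not analysed here. Unknown read depth limits what a missing peak can mean.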
